A study of Homo sapiens with 30 samples.

Results

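FKBP5 and 8 chaperones and co-chaperones that handle the glucocorticoid receptor are described here, gene by gene, in every group of a nascent transcription experiment. The 9 genes are the rows of the deposited count table named FKBP5, FKBP4, HSP90AA1, HSP90AB1, HSPA8, HSPA4, PTGES3, STIP1 and DNAJB1, out of 58780 genes in that table. The rows were taken by name, with no threshold on their values, and all 9 passed the filter on low counts. The cells were A549, an established human lung adenocarcinoma line. The assay was PRO-seq, in which nuclei extend RNA with biotin-labelled nucleotides, so that reads mark RNA being made by engaged polymerases.

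The 30 libraries formed 15 groups of 2. All drugs were given in 0.01% DMSO, and 0.01% DMSO is listed for the untreated libraries too. Dexamethasone, a synthetic glucocorticoid called Dex below, was used at 100 nM. The other drugs block enzymes that methylate arginines: GSK591 acts on PRMT5 and MS023 on the Type I family, and both were used at 1 µM. The reference group was untreated, with a labelled time of 15 min. Dex alone was given for 15 min or 3 h. Dex was given together with GSK591, or together with MS023, for 3 h. Each inhibitor alone was given for 2, 4 or 7 d. After 7 d of either inhibitor, Dex was given for 15 min or for 3 h. One untreated group serves every comparison with untreated, so those comparisons share its 2 libraries. No label says that the 2 libraries of a group came from separate cultures. P-values then measure only the spread between libraries within groups, taken over all 15 groups.

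As background, the unliganded receptor is folded in the cytoplasm by a relay of chaperones. HSP70 proteins and their J-domain partners bind it first, STIP1 (also called HOP) bridges HSP70 to HSP90, and the co-chaperone p23, the product of PTGES3, holds the receptor on HSP90 in a form that binds hormone. The immunophilins FKBP5 and FKBP4 then compete for a place on HSP90. FKBP5 lowers hormone affinity and delays nuclear entry, FKBP4 favours transport to the nucleus, and FKBP5 is itself a classic target of the receptor, which makes a short negative feedback loop.

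Libraries held 8441210 to 13069600 counts, of which 58.7% to 78.7% fell on mitochondrial genes. Levels are given as CPM, a gene's count relative to the library's total, scaled between libraries by the trimmed mean of M-values (TMM). Differences are log2 fold changes with standard errors from edgeR's quasi-likelihood test over all 15 groups, and a gene is called when its p adjusted over 22919 tested genes is under 0.05. The epithelial keratins KRT8 (157 to 456 CPM) and KRT18 (56.5 to 189 CPM) were abundant in every library. PTPRC and CD3E, markers of blood cells, had at most 5 counts, and the fibroblast marker DCN at most 8. The endothelial markers PECAM1 and CDH5 reached 15 and 16 counts, COL1A2 reached 30 counts, and COL1A1 ranged from 2.41 to 8.24 CPM. One library, replicate 2 of Dex with MS023 for 3 h, stood apart: processed pseudogenes took 1.80% of its nuclear counts, against 1.04% to 1.39% in the other 29. In these bulk libraries, fewer cells making an RNA and less RNA made per cell cannot be told apart.

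FKBP5 is the longest of the 9 genes. In the GENCODE release 29 annotation of GRCh38 it spans chr6:35573585-35728583 on the minus strand, 154999 bases, of which 10628 are exonic in any transcript. The partner immunophilin FKBP4 lies at chr12:2794953-2805423, and 3 opposite-strand genes overlap it by 658 bases in all. HSP90AA1, the stress-responsive cytosolic HSP90, lies at chr14:102080738-102139699, and HSP90AB1, the constitutive one, at chr6:44246166-44253888. HSPA8, the constitutive cytosolic HSP70, lies at chr11:123057489-123063230 and holds the small nucleolar RNA genes SNORD14C and SNORD14D. HSPA4, a nucleotide exchange factor of the HSP110 family, lies at chr5:133051962-133106449, and DNAJB1, a J-domain protein that delivers clients to HSP70, at chr19:14514770-14529770. PTGES3 lies at chr12:56663341-56688408 and STIP1 at chr11:64185272-64204543. Counts of named pseudogene copies came to 19.4% of the count of HSP90AB1, 15.0% for HSP90AA1, 11.0% for PTGES3 and 5.14% for HSPA8, so reads of these genes may be shared with near-identical copies. FKBP5 and HSPA4 had no such copy in the table.

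Promoter letters are shown for FKBP5, the member with the largest rise after Dex, and for the members with adjoining heat shock units upstream of a start site, 2 of which (HSPA8 and DNAJB1) were called at 3 h of Dex. Sequences are from the RefSeq GRCh38.p14 promoter table, 5′ to 3′ on the gene's strand, and 8 of the 9 members matched it with 15 start sites. FKBP4 is named only. Capitals mark 2 adjoining heat shock units (GAANNTTC or TTCNNGAA) and the 6-letter receptor hexamer where it overlaps them. The HSP90AA1 and HSPA8 stretches are short because they lie in exons of other annotated transcripts.
FKBP5, chr6:35728584-35728763, minus strand: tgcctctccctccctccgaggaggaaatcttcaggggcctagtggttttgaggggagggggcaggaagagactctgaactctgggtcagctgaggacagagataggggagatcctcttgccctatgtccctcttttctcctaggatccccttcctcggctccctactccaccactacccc
HSP90AA1, chr14:102087104-102087133, minus strand: cTTCCGGAAGGTTCgggaggcTTCTGGAAa
HSP90AB1, chr6:44247763-44247865, plus strand: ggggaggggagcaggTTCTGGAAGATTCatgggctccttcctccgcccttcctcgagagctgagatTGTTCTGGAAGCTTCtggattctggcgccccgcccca
HSPA8, chr11:123062170-123062199, minus strand: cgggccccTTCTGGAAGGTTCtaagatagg
DNAJB1, chr19:14518421-14518577, minus strand: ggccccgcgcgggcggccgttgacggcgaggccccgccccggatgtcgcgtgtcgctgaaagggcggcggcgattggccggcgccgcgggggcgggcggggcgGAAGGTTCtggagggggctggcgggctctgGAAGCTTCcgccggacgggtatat

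Both strands of the 250 bases before each start site were searched. A member was counted if any of its start sites held the letters, while the promoter shares below count each start site singly. Heat shock units in runs of 3 (GAANNTTCNNGAA or TTCNNGAANNTTC) were found at 3 members, namely HSP90AA1, HSP90AB1 and HSPA8. These were 3 of the members' 15 start sites, and 0.441% of 35116 RefSeq promoters held such a run. Adding DNAJB1, 4 members held at least 2 adjoining units, against 11.6% of promoters. The core of the receptor's palindrome, ACANNNTGT, was found at 0 members and in 4.61% of promoters. The hexamer TGTTCT (or AGAACA) was found at 2 members, at HSP90AB1 inside a heat shock run and at HSPA4, and in 12.4% of promoters. The windows of FKBP5, STIP1 and PTGES3 held none of these letters. Well-known receptor binding sites of FKBP5 lie in its introns, outside this window.

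Per kilobase of exonic length, FKBP5 was the lowest of the 9 genes in untreated cells, at 0.508 CPM per kb (mean of 2). FKBP4 stood at 4.42, HSPA4 at 5.63, PTGES3 at 7.22 and STIP1 at 8.78 CPM per kb. DNAJB1 stood at 14.0, HSPA8 at 16.1, HSP90AA1 at 17.4 and HSP90AB1 at 31.6 CPM per kb. After 3 h of Dex the FKBP5 level was 3.79 CPM per kb. The counted feature is not given in the sources used here, and the order between genes holds for exonic length only.

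FKBP5 was the member with the largest rise after Dex. The untreated libraries held 5.56 and 5.24 CPM. After 15 min of Dex they held 9.48 and 12.8 CPM, and after 3 h 40.5 and 40.1 CPM. The 3 groups do not overlap, and both libraries at each later time lie above both at the earlier one. At 3 h FKBP5 rose by 2.90 on the log2 scale (SE 0.26, adjusted p = 8.87e-08), a 7.45-fold change with a 95% interval of 5.09 to 10.9. In order of log2 fold change it was gene 117 of 22919. From 15 min to 3 h it rose by 1.85 (SE 0.24, adjusted p = 1.54e-05). At 15 min the fold over untreated was 2.06 (log2 1.04, SE 0.30, adjusted p = 0.12), which was not called, although 6 of 14 alternative settings called it and their adjusted p ran from 2.01e-05 to 0.743. FKBP5 counts were low outside the 3 h groups, with 50 and 52 reads in untreated cells.

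**Figure D1:**
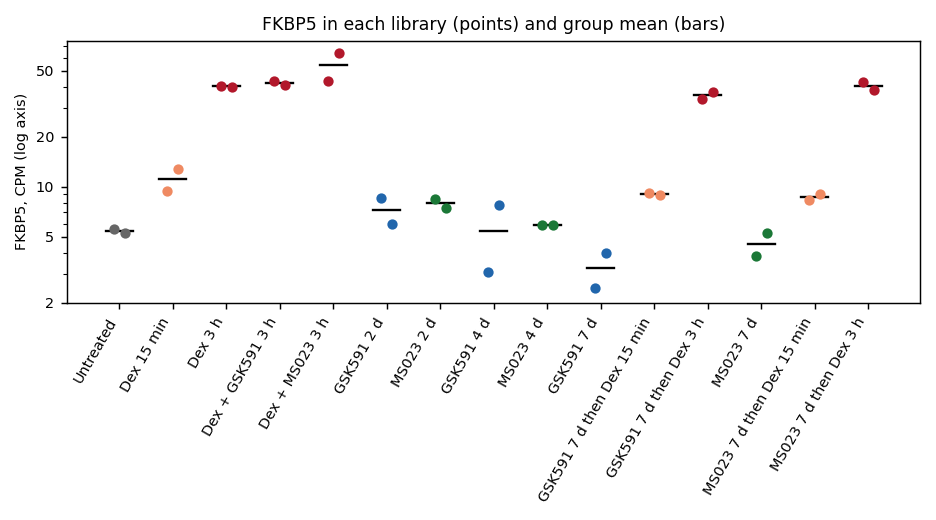
FKBP5 in CPM (log axis) in each of the 15 groups, with points for the 2 libraries and bars for the group mean (red, 3 h of Dex; orange, 15 min of Dex; grey, untreated; blue, GSK591 alone; green, MS023 alone). The 10 libraries given Dex for 3 h lie between 33.6 and 64.3 CPM, above all 20 others, which lie between 2.44 and 12.8 CPM.

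Giving an arginine methyltransferase inhibitor together with Dex for 3 h left FKBP5 high. With GSK591 the libraries held 43.4 and 41.0 CPM, and with MS023 43.5 and 64.3 CPM. Against untreated cells FKBP5 rose by 2.96 with GSK591 (SE 0.26, adjusted p = 5.37e-08) and by 3.32 with MS023 (SE 0.26, adjusted p = 8.29e-09). Against Dex alone, the difference with GSK591 was 0.07 on the log2 scale (95% interval −0.37 to 0.50, adjusted p = 0.996). With MS023 it was 0.42 (interval −0.01 to 0.85, adjusted p = 0.361). That value rests on the library that stood apart: it was 0.11 without replicate 2 and 0.66 (called) without replicate 1, and adjusted p over 14 settings ran from 0.0128 to 0.96.

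The inhibitors alone gave FKBP5 levels on both sides of the untreated value. With GSK591 the libraries held 8.60 and 5.98 CPM at 2 d, 3.07 and 7.72 at 4 d, and 2.44 and 4.02 at 7 d. With MS023 they held 8.41 and 7.48 CPM at 2 d, 5.90 and 5.91 at 4 d, and 3.82 and 5.28 at 7 d. Both 7 d GSK591 libraries lie below both untreated ones, and the GSK591 4 d pair spans the untreated values. None of the 6 differences was called by edgeR; the lowest was −0.76 for GSK591 at 7 d (SE 0.38, adjusted p = 0.219), and the highest was 0.56 for MS023 at 2 d (SE 0.31, adjusted p = 0.287). GSK591 and MS023 at matched days differed by −0.14, −0.14 and −0.51 at 2, 4 and 7 d, with adjusted p of 0.919, 0.876 and 0.47.

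After 7 d of either inhibitor, Dex still raised FKBP5. Following GSK591, the 15 min libraries held 9.15 and 8.95 CPM and the 3 h libraries 33.6 and 37.4 CPM. Following MS023, they held 8.27 and 8.99 CPM at 15 min and 42.8 and 38.1 CPM at 3 h. Against the same inhibitor alone, FKBP5 rose at 3 h by 3.47 after GSK591 (SE 0.30, adjusted p = 4.44e-08) and by 3.15 after MS023 (SE 0.25, adjusted p = 9.17e-09). At 15 min it rose by 1.50 after GSK591 (SE 0.35, adjusted p = 0.0279), a call lost without any 1 of the 4 libraries (log2 1.16 to 1.87). After MS023 the 15 min value was 0.92 (SE 0.29, adjusted p = 0.128), which 5 of 14 alternatives called.

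The response itself was compared between cells with and without an inhibitor by interaction terms, each a difference of 2 log2 fold changes. For FKBP5 after GSK591 the term was 0.46 at 15 min (95% interval −0.53 to 1.45) and 0.58 at 3 h (−0.34 to 1.49). After MS023 it was −0.12 at 15 min (−0.99 to 0.75) and 0.25 at 3 h (−0.54 to 1.05). None was called, and each interval still holds a 1.5-fold or larger difference in at least 1 direction. The level reached at 3 h differed from that of Dex without inhibitor by −0.18 after GSK591 (interval −0.62 to 0.26) and by 0.01 after MS023 (interval −0.42 to 0.43).

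Ordered by mean level, the 5 groups with 3 h of Dex come first, at 35.5 to 53.9 CPM. The 3 groups with 15 min of Dex follow at 8.63 to 11.1 CPM. The 7 groups without Dex lie at 3.23 to 7.94 CPM. The lowest 3 h library (33.6 CPM) lies far above the highest 15 min library (12.8 CPM). The 15 min and Dex-free sets meet, since the MS023 2 d pair (7.48 and 8.41 CPM) overlaps the MS023 7 d pair given 15 min of Dex.

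FKBP4, the immunophilin that favours nuclear transport, ranged from 12.2 to 31.5 CPM over the 30 libraries and had no call for Dex against untreated. It held 23.6 and 22.2 CPM in untreated cells, 20.4 and 22.4 after 15 min of Dex, and 28.6 and 26.9 after 3 h. The 3 h value was 0.28 above untreated (SE 0.13, adjusted p = 0.161) and was not called. Between 15 min and 3 h FKBP4 rose by 0.37 (adjusted p = 0.0441), a call lost without any 1 of the 4 libraries and under DESeq2. At 4 d of GSK591 it held 31.5 and 30.3 CPM, both above the untreated pair, and rose by 0.43 (SE 0.12, adjusted p = 0.00948). At 7 d of MS023 it held 16.4 and 19.2 CPM, both below, and fell by 0.36 on the log2 scale (SE 0.13, adjusted p = 0.045). The first of these calls was lost without GSK591 4 d replicate 1 or untreated replicate 2, and the second without any 1 of its 4 libraries. At 7 d of GSK591 the libraries held 15.6 and 20.4 CPM, also both below untreated (log2 −0.35, adjusted p = 0.0682). The lowest group was MS023 for 7 d then Dex for 15 min, at 12.2 and 14.1 CPM, which differed from MS023 alone by −0.44 (SE 0.13, adjusted p = 0.0561). That value was not called, and 2 of 14 alternatives called it.

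HSP90AA1 and HSP90AB1 were the least repeatable members. HSP90AA1 held 106 and 76.7 CPM in untreated cells, 54.9 and 142 after 15 min of Dex, and 64.4 and 77.4 after 3 h. HSP90AB1 held 104.8 and 83.8, then 62.6 and 119, then 54.7 and 57.4 CPM. For both genes the 15 min pair spans the untreated pair. At 3 h both HSP90AB1 libraries lie below both untreated ones (log2 −0.75, SE 0.45, adjusted p = 0.363), which was not called. It was called only with the compared groups fitted alone (−0.74, adjusted p = 6.93e-05, range over 14 alternatives 6.93e-05 to 0.696). With Dex and MS023 for 3 h the libraries held 61.6 and 243 CPM of HSP90AA1 and 46.5 and 186 CPM of HSP90AB1, the widest replicate ratios of the 15 groups (3.95 and 4.01). The high library of that pair is the one that stood apart, and the named pseudogene copies of HSP90AA1 held 594 counts in it against 51 in its partner.

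Without Dex, both HSP90 genes lay lower in every inhibitor library than in either untreated library. HSP90AA1 held 30.5 to 61.9 CPM and HSP90AB1 35.8 to 57.4 CPM over the 12 libraries of inhibitor alone. The log2 differences from untreated ran from −0.77 to −1.48 for HSP90AA1 and from −0.73 to −1.30 for HSP90AB1. No such difference was called in the fit over all groups; the smallest adjusted p was 0.0716, for HSP90AB1 at 4 d of MS023. When only the compared groups were fitted, HSP90AB1 was called in all 6 comparisons and HSP90AA1 in 4. Without the library that stood apart, HSP90AB1 was called at 4 and 7 d of both inhibitors. The values there were −1.02 at 4 d of GSK591, and −1.30 and −1.25 at 4 and 7 d of MS023. Over the 14 alternatives of these results, adjusted p ran from 9.31e-12 to 0.712. When the fit was given each library's share of processed-pseudogene counts as a term, HSP90AB1 at 7 d of MS023 had the smaller value of −0.72 (adjusted p = 0.037, range over 14 alternatives 4.13e-11 to 0.712). That share was 1.32% and 1.20% in the untreated libraries and 1.04% to 1.28% in the 12 libraries of inhibitor alone. Its part in the HSP90 differences was not tested beyond this covariate.

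**Figure D2:**
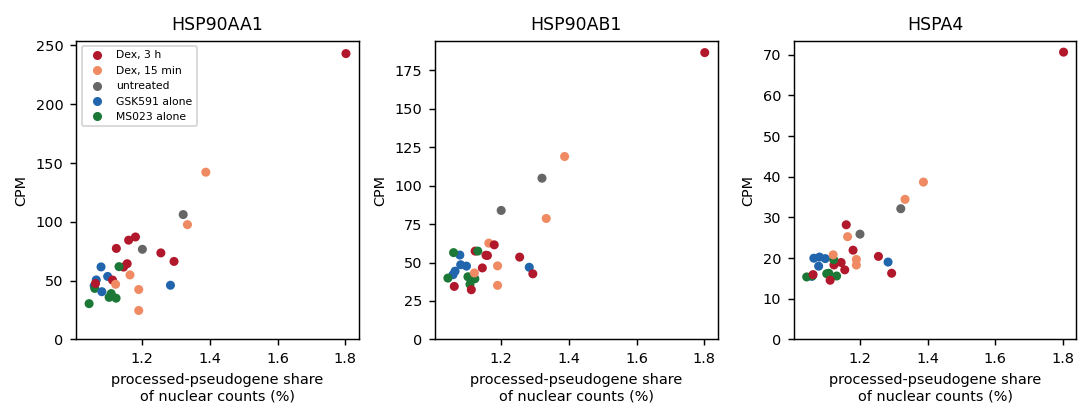
CPM of HSP90AA1, HSP90AB1 and HSPA4 against the processed-pseudogene share of nuclear counts (percent) in the 30 libraries, coloured by treatment. The library at 1.80% is also the highest in all 3 genes, and Dex 15 min replicate 2, at 1.39%, is the next in share.

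HSPA4, which releases ADP from HSP70, followed the same libraries. It held 32.1 and 25.9 CPM in untreated cells, 17.1 and 18.3 after 3 h of Dex, and 18.9 and 70.6 with Dex and MS023. The inhibitor-alone libraries held 15.4 to 20.3 CPM, all below the untreated pair. The log2 differences from untreated were −0.71 for Dex at 3 h (SE 0.45, adjusted p = 0.392) and −0.53 to −0.89 for the inhibitors, none called over all groups. With only the compared groups fitted, the Dex 3 h value was −0.70 and was called (adjusted p = 0.000695, range over 14 alternatives 0.000695 to 0.738), as were all 6 inhibitor comparisons. Against Dex alone, Dex with MS023 gave 1.35 for HSPA4, 1.11 for HSP90AA1 and 1.06 for HSP90AB1, none called. Without replicate 2 these were 0.09, −0.20 and −0.27.

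DNAJB1 was the 1 member called at 15 min of Dex. It held 48.2 and 54.3 CPM in untreated cells, 72.1 and 73.0 after 15 min, and 92.2 and 93.5 after 3 h. The 3 pairs do not overlap. DNAJB1 rose by 0.50 at 15 min (SE 0.11, adjusted p = 0.00863), 1.41-fold, and by 0.86 at 3 h (SE 0.11, adjusted p = 1.18e-07), 1.81-fold. The 15 min call was lost without Dex 15 min replicate 1 or 2 or untreated replicate 1 (log2 0.42 to 0.51), and the 3 h call held in all 14 alternatives. With Dex and GSK591 for 3 h the libraries held 98.0 and 93.5 CPM and with Dex and MS023 102 and 87.6 CPM. These are rises over untreated of 0.90 (adjusted p = 3.04e-08) and 0.88 (adjusted p = 5.46e-08).

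After 7 d of an inhibitor, DNAJB1 stood lower with GSK591 than with MS023, by −0.28 on the log2 scale, which was not called (adjusted p = 0.116). With GSK591 alone it held 53.1 and 58.6 CPM, then 73.2 and 63.5 after 15 min of Dex and 87.6 and 68.5 after 3 h. With MS023 alone it held 63.8 and 71.8 CPM, then 106.5 and 105.5 after 15 min and 103 and 113 after 3 h. MS023 at 7 d raised DNAJB1 by 0.40 over untreated (SE 0.11, adjusted p = 0.0112), a call lost without MS023 7 d replicate 2 or untreated replicate 1. Against the inhibitor alone, Dex raised it by 0.64 at 15 min (adjusted p = 0.000121) and 0.67 at 3 h (adjusted p = 8.08e-06) after MS023. After GSK591 it rose by 0.48 at 3 h (adjusted p = 0.00266), a call lost without replicate 1 of either group, and the 15 min value was 0.29 (adjusted p = 0.228). The interaction of GSK591 with 3 h of Dex was −0.37 for DNAJB1 (95% interval −0.70 to −0.05, adjusted p = 0.468), and the one of MS023 was −0.18 (interval −0.50 to 0.13).

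HSPA8 was called at 3 h of Dex and not at 15 min. It held 82.5 and 73.9 CPM in untreated cells, 72.6 and 99.97 after 15 min of Dex, and 108 and 136 after 3 h. The 15 min pair spans the untreated pair, and the 3 h pair lies above both. HSPA8 rose by 0.65 at 3 h (SE 0.14, adjusted p = 0.00164), 1.56-fold. Without Dex 3 h replicate 2 the value was 0.47 and the call was lost (adjusted p = 0.0631; range over 14 alternatives 2.12e-08 to 0.0631). It rose by 0.77 with Dex and GSK591 (124.5 and 142.5 CPM, adjusted p = 0.00017) and by 0.94 with Dex and MS023 (123 and 176 CPM, adjusted p = 9.3e-06).

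HSPA8 also moved with the inhibitors alone, downward with GSK591. With GSK591 it held 74.6 and 80.1 CPM at 2 d, 44.3 and 49.9 at 4 d, and 55.7 and 59.4 at 7 d. With MS023 it held 103 and 108 CPM at 2 d, 61.9 and 58.3 at 4 d, and 76.8 and 71.4 at 7 d. At each day both MS023 libraries lay above both GSK591 libraries. HSPA8 fell at 4 d of GSK591 by 0.73 on the log2 scale (SE 0.14, adjusted p = 0.000425) and at 7 d by 0.44 (SE 0.14, adjusted p = 0.0366), and it rose at 2 d of MS023 by 0.43 (SE 0.14, adjusted p = 0.0424). The last 2 calls were lost without any 1 of their 4 libraries, and under DESeq2. GSK591 minus MS023 was −0.45, −0.35 and −0.37 at 2, 4 and 7 d (95% intervals within −0.73 to −0.06), with adjusted p of 0.0875, 0.165 and 0.106. All 3 were called without the library that stood apart.

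After 7 d of an inhibitor, 3 h of Dex raised HSPA8 to 90.1 and 95.7 CPM with GSK591 and to 129 and 120.2 CPM with MS023. The rises over the inhibitor alone were 0.69 (adjusted p = 0.00108) and 0.75 (adjusted p = 0.000202). Both sets of libraries lie above the matching inhibitor pair. The interaction terms at 3 h were 0.05 for GSK591 (95% interval −0.36 to 0.45) and 0.10 for MS023 (interval −0.30 to 0.50), neither called. At 15 min of Dex, HSPA8 differed from the inhibitor alone by 0.32 after GSK591 and 0.23 after MS023, neither called.

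STIP1, the bridge between HSP70 and HSP90, ran from 35.8 to 57.9 CPM over the 30 libraries, the smallest ratio of highest to lowest library among the 9 genes (1.62). It held 41.3 and 40.5 CPM in untreated cells, 47.2 and 41.6 after 15 min of Dex, and 51.8 and 57.9 after 3 h. The 3 h pair lies above all 4 others. STIP1 rose by 0.42 at 3 h (SE 0.12, adjusted p = 0.0116), 1.34-fold, a call lost without Dex 3 h replicate 2 or either untreated library (log2 0.34 to 0.44). With Dex and GSK591 it held 48.7 and 50.2 CPM and with Dex and MS023 43.7 and 49.9 CPM, above untreated by 0.28 and 0.20, not called. After 7 d of GSK591, 3 h of Dex left it at 46.1 and 40.2 CPM, which was lower than Dex without inhibitor by 0.34 on the log2 scale (adjusted p = 0.0412). That call was lost in 8 of 14 alternatives. Among them were leaving out Dex 3 h replicate 2 or the second library of the pretreated group, and DESeq2.

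PTGES3, which encodes p23, had no Dex call. It held 25.9 and 23.2 CPM in untreated cells, 22.8 and 27.8 after 15 min of Dex, and 22.4 and 25.0 after 3 h (log2 −0.05, 95% interval −0.37 to 0.27). The 3 pairs overlap. At 4 d of MS023 it held 18.2 and 17.6 CPM, both below untreated, and fell by 0.45 on the log2 scale (SE 0.16, adjusted p = 0.0414), a call lost without any 1 of the 4 libraries. At 4 d of GSK591 it held 17.1 and 19.3 CPM (log2 −0.43, adjusted p = 0.0533).

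**Figure D3:**
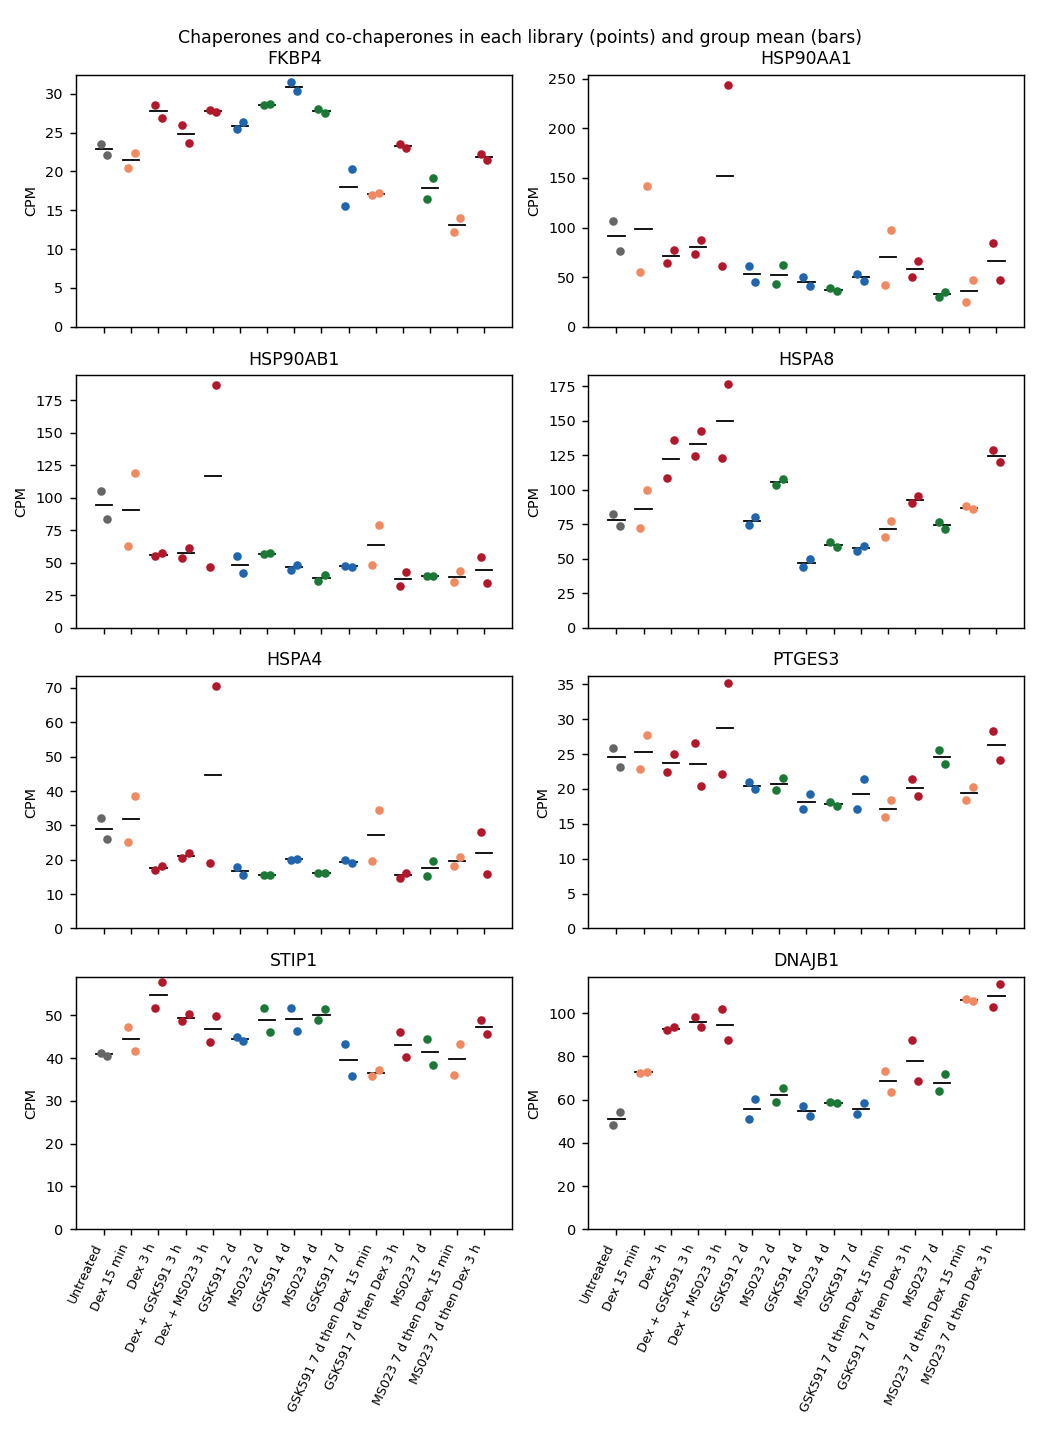
CPM of the 8 members other than FKBP5 in each group, with points for the 2 libraries and bars for the group mean (red, 3 h of Dex; orange, 15 min of Dex; grey, untreated; blue, GSK591 alone; green, MS023 alone); each axis starts at 0. DNAJB1 and HSPA8 stand higher in the groups given Dex for 3 h than in untreated cells, while HSP90AA1, HSP90AB1 and HSPA4 peak in 1 library of Dex with MS023.

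Counted over the set, 1 member of 9 was called at 15 min of Dex (DNAJB1), where 1.26% of all tested genes were called. At 3 h of Dex 4 members were called, all higher (FKBP5, HSPA8, STIP1, DNAJB1), where 10.5% of genes were called. With only the compared groups fitted the count was 6, adding HSP90AB1 and HSPA4 as lower, and without Dex 3 h replicate 2 it was 2. The median log2 fold change of the members was 0.28 at 3 h, against −0.01 over all tested genes. Between 15 min and 3 h, 4 members were called, all higher (FKBP5, FKBP4, HSPA8, DNAJB1), against 10.8% of genes, and DESeq2 called 2 of them. FKBP5, HSPA8 and DNAJB1 were the 3 called against untreated with Dex and GSK591 (11.9% of genes) and the 3 called with Dex and MS023 (12% of genes). Dex with GSK591 against Dex alone called 0 members and 0% of genes by edgeR; DESeq2 also called 0, and at an unadjusted p under 0.05 there were 0 members and 1306 genes. Dex with MS023 against Dex alone called 0 members (3 at an unadjusted p under 0.05, 0 by DESeq2) and 0.196% of genes.

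For the inhibitors against untreated, calls among the members were few. GSK591 called 0 members at 2 d by edgeR (0 at an unadjusted p under 0.05, 0 by DESeq2), where 5.64% of genes were called. It called 2 at 4 d (FKBP4 higher, HSPA8 lower; 17.2% of genes) and 1 at 7 d (HSPA8 lower; 13.2% of genes). MS023 called 1 at 2 d (HSPA8 higher; 10.4% of genes), 1 at 4 d (PTGES3 lower; 14.2% of genes) and 2 at 7 d (FKBP4 lower, DNAJB1 higher; 13.6% of genes). These shares of the members lie near the shares of all genes. GSK591 against MS023 called 0 members at each day by edgeR, with 1, 1 and 3 at an unadjusted p under 0.05 at 2, 4 and 7 d and 0 by DESeq2. All genes were called in 2.69%, 6.03% and 9.38% of cases.

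In cells pretreated for 7 d, 15 min of Dex called 1 member after GSK591 (FKBP5; 2.09% of genes) and 1 after MS023 (DNAJB1; 2.07% of genes). At 3 h the same 3 members, FKBP5, HSPA8 and DNAJB1, were called after GSK591 (9.85% of genes) and after MS023 (11.1% of genes), all higher. Against 3 h of Dex without inhibitor, 1 member was called after GSK591 (STIP1, lower; 13.6% of genes). After MS023 edgeR called 0 (1 at an unadjusted p under 0.05, 0 by DESeq2), where 11.5% of genes were called. The 4 interaction terms called 0 members by edgeR and 0 by DESeq2. At an unadjusted p under 0.05 they held 0, 1, 0 and 0 members for GSK591 at 15 min and 3 h and MS023 at 15 min and 3 h. All genes were called in 0.00436%, 0.223%, 0.00436% and 0.223% of cases.

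**Figure D4:**
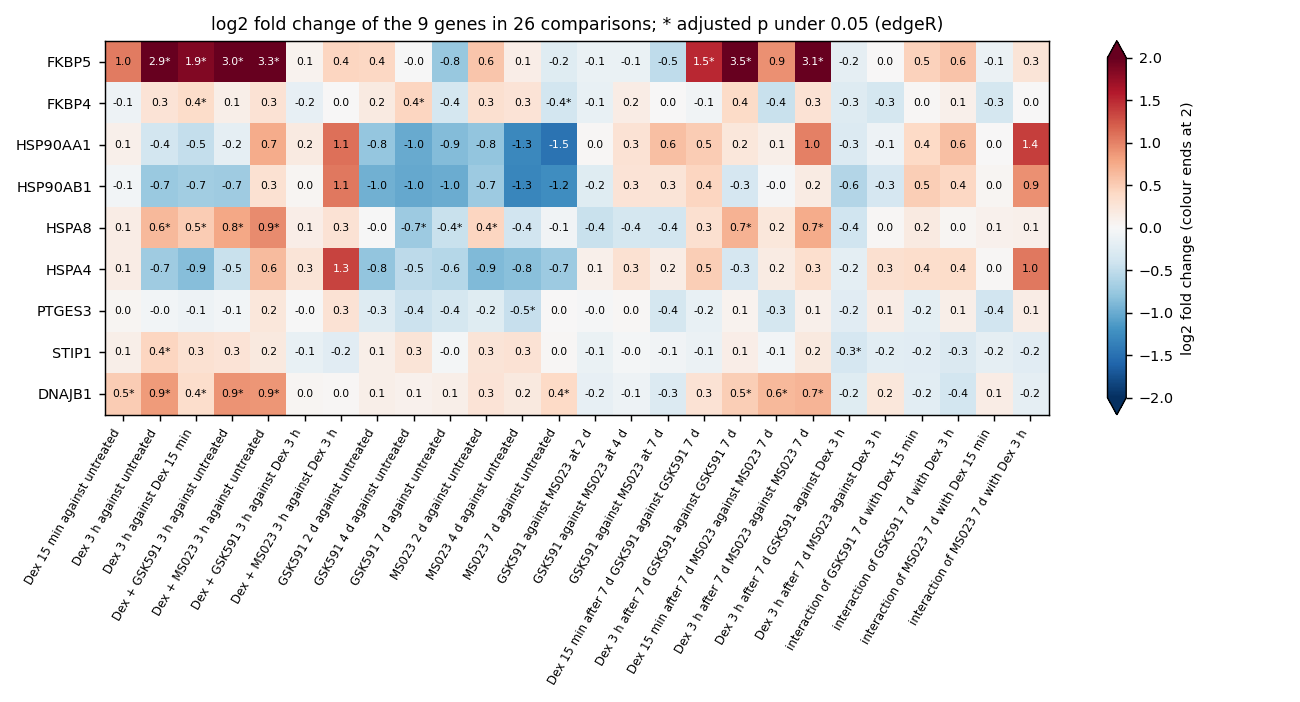
Log2 fold changes of the 9 genes in the 26 comparisons (colour, ending at 2 in either direction), with an asterisk where the adjusted p from edgeR was under 0.05. FKBP5, HSPA8 and DNAJB1 are marked in the 5 columns that set 3 h of Dex against cells without Dex, while HSP90AA1, HSP90AB1 and HSPA4 carry no mark.

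NR3C1, the receptor itself, held 47.8 and 49.6 CPM in untreated cells and 34.8 and 41.8 after 3 h of Dex, a fall of 0.35 on the log2 scale (SE 0.11, adjusted p = 0.0365). At 7 d of MS023 it held 69.9 and 65.5 CPM and rose by 0.48 (SE 0.11, adjusted p = 0.00158), while at 7 d of GSK591 it held 50.2 and 49.2 CPM. From those levels, 3 h of Dex took it to 45.3 and 57.5 CPM after MS023, a fall of 0.40 (adjusted p = 0.00752). After GSK591 it was 32.6 and 32.0 CPM, a fall of 0.62 (adjusted p = 0.000103). In these 3 settings the pairs given Dex lie below the matching pairs without it. With an inhibitor given together with Dex, NR3C1 was not called against untreated: the values were −0.20 with GSK591 (adjusted p = 0.269) and −0.08 with MS023 (adjusted p = 0.731). Nor was it called against Dex alone at 3 h, with 0.15 for GSK591 (adjusted p = 0.946) and 0.27 for MS023 (adjusted p = 0.252).

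Of 19 other genes of the cytosolic HSP70 system, 2 rose at 3 h of Dex, where 10.5% of all genes were called. With Dex and GSK591 5 rose (11.9% of all genes called), with Dex and MS023 1 (12%), after GSK591 5 (9.85%) and after MS023 4 (11.1%), and no list gene fell in these comparisons. BAG3, an HSP70 exchange factor induced by stress, held 16.1 and 15.6 CPM in untreated cells, 35.8 and 32.5 after 15 min of Dex and 29.0 and 28.0 after 3 h. It rose by 1.11 at 15 min (SE 0.15, adjusted p = 7.25e-07) and by 0.84 at 3 h (SE 0.15, adjusted p = 5.08e-05), and both 15 min libraries lie above both 3 h libraries. DNAJB2, another J-domain protein, fell at 15 min by 0.69 (adjusted p = 0.0031). Of 10 organelle and small heat shock proteins, HSPB1 (HSP27) alone was called at 3 h, where 10.5% of all genes were called. It went from 41.4 and 48.8 CPM in untreated cells to 108 and 97.2 CPM, a rise of 1.19 (SE 0.11, adjusted p = 1.89e-11). HSPB1 also rose by 1.42 with Dex and GSK591, by 1.16 with Dex and MS023, by 1.21 after GSK591 and by 1.16 after MS023. HSPB8 rose at 7 d of GSK591 by 1.86 and of MS023 by 1.70, and fell with 3 h of Dex after each, by 0.77 and 0.94.

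Among 16 other receptor co-chaperones, 1 was called at 3 h of Dex, where 10.5% of all genes were called. It was CDC37L1, a relative of the kinase co-chaperone CDC37, which rose (log2 0.75, SE 0.15, adjusted p = 0.000342). CDC37L1 also rose by 0.84 and 0.91 at 2 and 4 d of GSK591, and it was the list's called gene for the interaction of GSK591 with 3 h of Dex (log2 −0.93, adjusted p = 0.0474). Against Dex alone at 3 h, CDC37L1 was called lower with Dex and MS023 (log2 −0.67). It was also called lower with Dex after 7 d of GSK591 (−0.63) and after 7 d of MS023 (−0.69). The inhibitors called between 1 and 4 of the 16 at each day, where 5.64% to 17.2% of all genes were called. NUDC, an HSP90 co-chaperone, fell by 0.66 at 4 d of GSK591 and by 0.99 at 7 d of MS023, and TTC4, an HSP90-binding protein, fell by 1.22 at 7 d of GSK591. Of the 3 heat shock factors, edgeR called 0 at 15 min or 3 h of Dex (0 at an unadjusted p under 0.05). The shares of all genes called there were 1.26% and 10.5%. HSF4 rose by 0.58 with 3 h of Dex after GSK591 (adjusted p = 0.0369), and HSF1 was lower with 3 h of Dex after MS023 than with Dex alone (log2 −0.39, adjusted p = 0.0251). Of 13 other FKBP genes, edgeR called 0 at 3 h of Dex (1 at an unadjusted p under 0.05), against 10.5% of all genes. At 7 d of MS023 4 of the 13 were called, 2 higher and 2 lower, where 13.6% of all genes were called. Among them FKBP9, which works in the endoplasmic reticulum, fell by 0.61.

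Over the 15 group means of log2 CPM, the patterns of FKBP5, HSPA8 and DNAJB1 were alike: Pearson's r was 0.87 for FKBP5 and HSPA8 and 0.79 for FKBP5 and DNAJB1. HSP90AB1 had r of 0.86 with HSP90AA1 and 0.84 with HSPA4. FKBP4 and STIP1 had r of 0.81. Of the 11116 other genes averaging 5 CPM or more, those most like FKBP5 were ZDHHC8BP (r 0.967), TCF19 (0.964), PLEKHA7 (0.963), GRAMD4 (0.960) and SH3TC1 (0.958). PLEKHA7, a junction protein, ran from 9.13 to 59.5 CPM over the groups. Those most like HSPA8 were KRT8 (0.942), PBX3 (0.936) and KRT18 (0.923), and those most like DNAJB1 were WWTR1-AS1 (0.953), AC008750.5 (0.950) and KCNJ11 (0.936). HSP90AA1 was most like THRAP3 (0.945), EZR (0.942) and AKAP12 (0.937), HSP90AB1 like HNRNPM (0.958), SMC1A (0.957) and NCL (0.953), and HSPA4 like HNRNPR (0.946), PRPF4B (0.938) and SLK (0.934). FKBP4 was most like RNF39 (0.943), LPCAT4 (0.940) and PSME1 (0.936), STIP1 like C11orf80 (0.912), C1orf115 (0.908) and HTRA2 (0.906), and PTGES3 like IGF2BP1 (0.890), ASH1L (0.870) and PPP5C (0.862). These r values describe groups that share libraries and scaling, and carry no test.

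The authors' deposited tables give their own log2 fold changes against untreated. For FKBP5 the authors' deposited tables list 1.54 at 15 min of Dex, 4.12 at 3 h, 4.20 with Dex and GSK591 and 4.24 with Dex and MS023. Still against untreated, FKBP5 in the authors' deposited tables after 7 d of GSK591 has 1.03 at 15 min and 3.96 at 3 h, and after MS023 1.68 and 4.36. For the inhibitors alone at 2, 4 and 7 d, the authors' deposited tables list −0.16, −0.49 and −0.46 with GSK591 and −0.09, −0.05 and 0.15 with MS023 for FKBP5. DNAJB1 has 1.01 at 15 min and 1.43 at 3 h in the authors' deposited tables, HSPA8 0.85 and STIP1 0.66 at 3 h. HSP90AB1 has −0.85 at 7 d of GSK591 and −1.12 at 7 d of MS023 in the authors' deposited tables. For HSPA4 the authors' deposited tables list 0.19 at 3 h of Dex, where the count table gave −0.71. They list 0.36 for it with Dex and MS023, called higher, and −0.11 to 0.15 for the inhibitors alone. The uncalled falls of HSPA4 in the count table, −0.53 to −0.89 for the inhibitors, thus have no match there.

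With an adjusted p under 0.05, the authors' deposited tables call 2 members at 15 min of Dex (FKBP5 and DNAJB1; 3.93% of genes with a value) and 5 at 3 h (those 2, FKBP4, HSPA8 and STIP1; 21.9% of genes). The authors' deposited tables call 4 members lower at 7 d of GSK591 (FKBP4, FKBP5, HSP90AB1, PTGES3; 23.8% of genes) and 2 lower at 7 d of MS023 (FKBP4 and HSP90AB1; 22% of genes). At earlier days their calls include higher ones. At 2 d these are DNAJB1 with GSK591, and DNAJB1, HSPA8 and STIP1 with MS023. At 4 d STIP1 is called higher with each inhibitor, FKBP5 and HSPA8 lower with GSK591, and HSP90AB1 lower with MS023. The shares of all genes called at those earlier days are not reported here. The mean count of FKBP5 in the count table was 192, while its base mean in the authors' deposited tables is 1060; for DNAJB1 these are 790 and 181. The counts behind the 2 sources thus differ gene by gene, for a reason not given in the sources used here. Over the 9 genes and the 10 comparisons against untreated that both sources share, 14 of 90 values were called in both, all with the same sign. Another 18 were called in the authors' deposited tables alone and 4 in the count table alone.

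**Figure D5:**
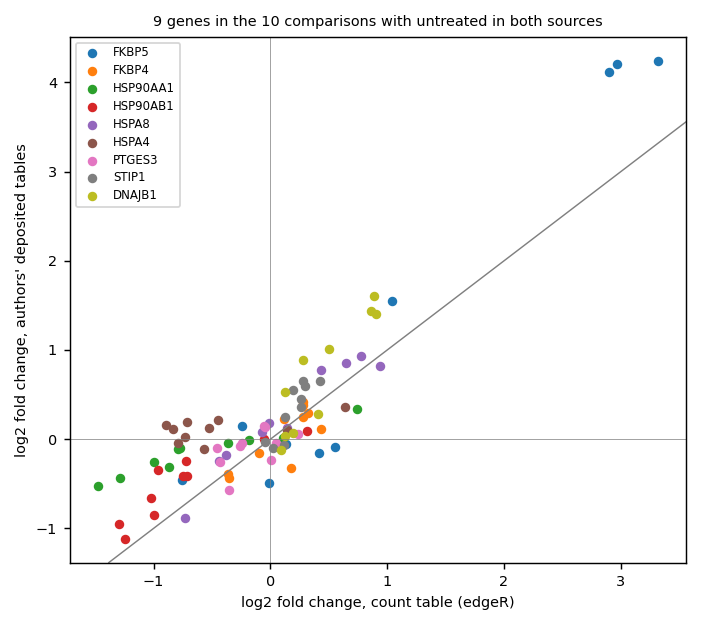
Log2 fold changes of the 9 genes in 10 comparisons against untreated, from the count table (edgeR, horizontal) and from the authors' deposited tables (vertical), coloured by gene. FKBP5 with Dex and MS023 for 3 h lies farthest from the origin, at 3.32 and 4.24.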

How the data were processed

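The members and gene lists were chosen with earlier results of these data known. Whole-number counts per gene were deposited by the authors; featureCounts 2.0.1 (Subread) and hg38 are named per the submitters' processing notes, and the aligner, strand setting and counted feature are not given in the sources used here. The authors' deposited tables hold base means (a normalised signal), log2 fold changes with standard errors, and p-values. Symbols come from GENCODE 29.

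Counts were tested with edgeR 4.0.16 (R 4.3.3): filterByExpr (minimum count 10, minimum total 15; 22919 of 58780 genes kept), TMM scaling, a robust quasi-likelihood fit of 15 groups with 15 residual degrees of freedom, and Benjamini-Hochberg adjustment over all tested genes in each of 26 comparisons. The fit was checked on simulated data. Alternatives were DESeq2 1.42.0, other scalings and filters, the compared groups alone, left-out libraries, pseudogene copies added and a replicate block. The processed-pseudogene covariate and leaving out the library that stood apart were added after seeing the data. Deviations of same-numbered libraries correlated with r from −0.45 to 0.48 over 105 group pairs (median 0.02), and 21 pairs exceeded 0.1, so the numbers were not taken as pairing.

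Named genes were all members, NR3C1, the closest patterns by r over groups (5 for FKBP5, 3 for each other member) and, in each list, the called genes with the largest rise and fall and at least 5 CPM. Some genes that this rule or the marker lists name are not reported here. Replicates of a group correlated at 0.922 to 0.983. Standard errors cover the spread between libraries within groups, taken over all 15 groups, so groups outside a comparison also set them.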

Additional observations from a re-analysis of the deposited data

How the results depend on the processing

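Over the members' 26 comparisons and their counts, 3293 alternative values were called or uncalled as before, 121 gained a call and 80 lost one. Another 58 counts moved and 7 values reversed. A value uncalled both ways was counted as unchanged even if its sign changed. HSP90AA1 at 15 min of Dex, for example, ran from −0.73 to 0.64 over 14 alternatives. FKBP5 at 3 h of Dex was called under every alternative run, alone, with either inhibitor and after either inhibitor. Scaling by total counts moved the median log2 fold change of all genes by 0.68, 0.74 and 1.02 at 2, 4 and 7 d of MS023 and by 0.15 at 3 h of Dex. Under it, with the shift of all genes still included, 7 values were counted as reversed. At 7 d of MS023 these were FKBP5 0.77, FKBP4 0.66 and HSPA8 0.95, and at 4 d of MS023 PTGES3 0.30. For GSK591 against MS023 at 7 d it was FKBP4 −1.05. For Dex after MS023 against Dex at 3 h they were FKBP4 0.50 and STIP1 0.62. Uncalled values that changed sign are not listed: HSPA4 at 7 d of MS023, for example, ran from −0.91 to 0.30 over 14 alternatives. FKBP5 at 15 min of Dex gained its call under the DESeq2 test (1.05), compared groups alone (1.05), no filter (1.04), the processed-pseudogene covariate (1.02), total counts (1.37) and without the library that stood apart (1.04). After 7 d of MS023 the 15 min value gained it under the same settings except total counts (0.93, 0.93, 0.87, 0.85 and 0.91). Leaving out 1 library each gave FKBP5 1.16 to 1.87 for 15 min of Dex after GSK591 and 0.11 to 0.66 for Dex with MS023 against Dex; the cause was not tested.

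The count of members called at 15 min of Dex was 2, not 1, under those 6 settings. With the compared groups alone it was 2 and 6 at 2 and 4 d of GSK591, 4 at 7 d, and 5, 6 and 5 at 2, 4 and 7 d of MS023. Without the library that stood apart it was 4 and 2 at 4 and 7 d of GSK591 and 2, 4 and 4 for MS023. At 7 d of GSK591 it was 0 with DESeq2 size factors, the DESeq2 test, copies summed or total counts, and 2 with no filter or the covariate. At 2 d of MS023 it was 0 with size factors, the DESeq2 test or copies summed, 2 with the covariate and 5 with total counts. At 4 d of MS023 it was 0 with size factors or copies summed, 2 with no filter and 4 with total counts. At 7 d it was 1 with size factors, the DESeq2 test or no filter and 6 with total counts. Total counts called 9228, 11285 and 16196 of all 22919 genes at 2, 4 and 7 d of MS023. With the compared groups alone, 3952 of 19036, 4759 of 19541 and 4371 of 20058 genes were called at those days. At 7 d of GSK591 that setting called 3952 of 18444 genes. Leaving out 1 library each gave 0 to 1 at 15 min of Dex, 2 to 4 at 3 h (6 with the compared groups alone), 1 to 2 and 0 to 1 at 4 and 7 d of GSK591, and 0 to 0, 0 to 0 and 0 to 1 for MS023. The replicate block gave 2 members at 4 d of MS023 and added calls for HSPA8 only: −0.38 there, −0.45 and −0.37 for GSK591 against MS023 at 2 and 7 d, and −0.39 for Dex after GSK591 against Dex at 3 h. Low counts limit FKBP5 outside the 3 h groups (21 to 128 reads a library).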
